A study of Mus musculus with 2 samples.

Results

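The genes that run the cell division cycle and copy DNA were examined for N6-methyladenosine (m6A) in the newborn mouse brain. A list of 45 genes was used, of the 21951 protein-coding genes in the annotation, and a site was counted for a gene when it lay inside the gene's GENCODE M21 interval on GRCm38 (mm10) and on the gene's strand. Of 219409 sites listed in either of 2 libraries, 248 fell in these genes. The list comprised G1 cyclins and their kinases, CDK inhibitors, pocket proteins and E2F factors, Myc factors, S phase cyclins, replication licensing and fork proteins, ribonucleotide reductase, and the mitotic machinery.

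Both libraries were female F1r at P0 (postnatal day 0), the progeny of C57 females and PWK males. The RNA could therefore hold transcripts from the alleles of both strains. One library was made from the cerebellum and the other from the cerebrum, each from poly(A)+ RNA that had undergone GLORI+ treatment, in which glyoxal and nitrite deaminate adenosine unless it is methylated, so that m6A alone is still sequenced as A. The cerebellum list held 79355 sites and the cerebrum list 188295. The methods name a single mouse as the source of both tissues. With 1 library per tissue there was no replicate, so no difference between the tissues was tested, and the lists give positions without methylation rates or read counts, so the depth behind each site is unknown.

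A dividing cell passes the G1 checkpoint when D-type cyclins with their kinases phosphorylate the retinoblastoma protein and release E2F factors, which switch on the genes for DNA replication, while CDK inhibitors hold this step back. Replication origins are licensed by loading the Mcm helicase, and cyclin B with Cdk1, Aurora and Polo kinases and the spindle checkpoint then carry the cell through mitosis. At birth, cerebellar granule cell precursors and the progenitors and glial precursors of the forebrain are still dividing. m6A is deposited by the Mettl3 and Mettl14 methyltransferase, mostly in the DRACH motif (in which D stands for any base but C, R for a purine and H for any base but G, with the methylated A at the centre), and Myc is among the mRNAs known to carry it near the end of the coding sequence.

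Of the sites in these genes that were listed in both libraries, 17 lay in DRACH. They belonged to 7 genes. For Mycn, Myc and E2f3, which had 3 or more such sites, the shared site nearest to the stop codon is shown first, followed by the 1 DRACH site found in the cerebellum list alone. The rest were chosen after their values were seen: 1 shared 3′UTR site of each of the other 4 genes and, from the cerebrum list alone, a pair of matching coding sites in Myc and Mycn and 1 site each in Ccnd2, Aspm and Mki67. Each sequence is the RNA strand written as DNA, 5′ to 3′, in GRCm38, with the 5-mer that holds the site at its centre in capitals.
Mycn, 3′UTR, chr12:12936980-12937000, minus strand, both libraries: tcccacacGGACAgtcactgc
Myc, 3′UTR, chr15:61989899-61989919, plus strand, both libraries: tggtgcatAAACTgacctaac
E2f3, 3′UTR, chr13:29909864-29909884, minus strand, both libraries: gtccttatAAACCaatatttt
Myc, 3′UTR, chr15:61990057-61990077, plus strand, cerebellum only: cataatttTAACTgcctcaaa
Cdkn1a, 3′UTR, chr17:29100551-29100571, plus strand, both libraries: cctggtctGGACTgtctaccc
Cdkn1b, 3′UTR, chr6:134924336-134924356, plus strand, both libraries: cattgaatGGACAtcctgtat
Rb1, 3′UTR, chr14:73196672-73196692, minus strand, both libraries: tacacattGGACTattttaat
Rrm1, 3′UTR, chr7:102469209-102469229, plus strand, both libraries: ccaaatagAGACTctactcat
Myc, coding sequence, chr15:61987909-61987929, plus strand, cerebrum only: atcatccaGGACTgtatgtgg
Mycn, coding sequence, chr12:12940040-12940060, minus strand, cerebrum only: atccttcaGGACTgcatgtgg
Ccnd2, 3′UTR, chr6:127127765-127127785, minus strand, cerebrum only: tcttcctaGGACTgagtctgg
Aspm, coding sequence, chr1:139457084-139457104, plus strand, cerebrum only: tacaaaaaGGACTtccaaaaa
Mki67, coding sequence, chr7:135697982-135698002, minus strand, cerebrum only: cagacactGGACTcatcagca

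Sites in the 45 genes were few in the cerebellum and concentrated in the cerebrum list. The cerebellum list held 47 sites in these genes, 18 of them DRACH, and the cerebrum list held 226, of which 129 were DRACH. The cerebrum count was thus 7.17 times the cerebellum count for DRACH sites in these genes, beside 1.79 times for all DRACH sites of the libraries. As a share of its library's DRACH sites, the group made up 0.0365% in the cerebellum and 0.147% in the cerebrum. The counts per gene are shown in the bar plot, in which the cerebellum panel is empty for most genes.

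**Figure D1:**
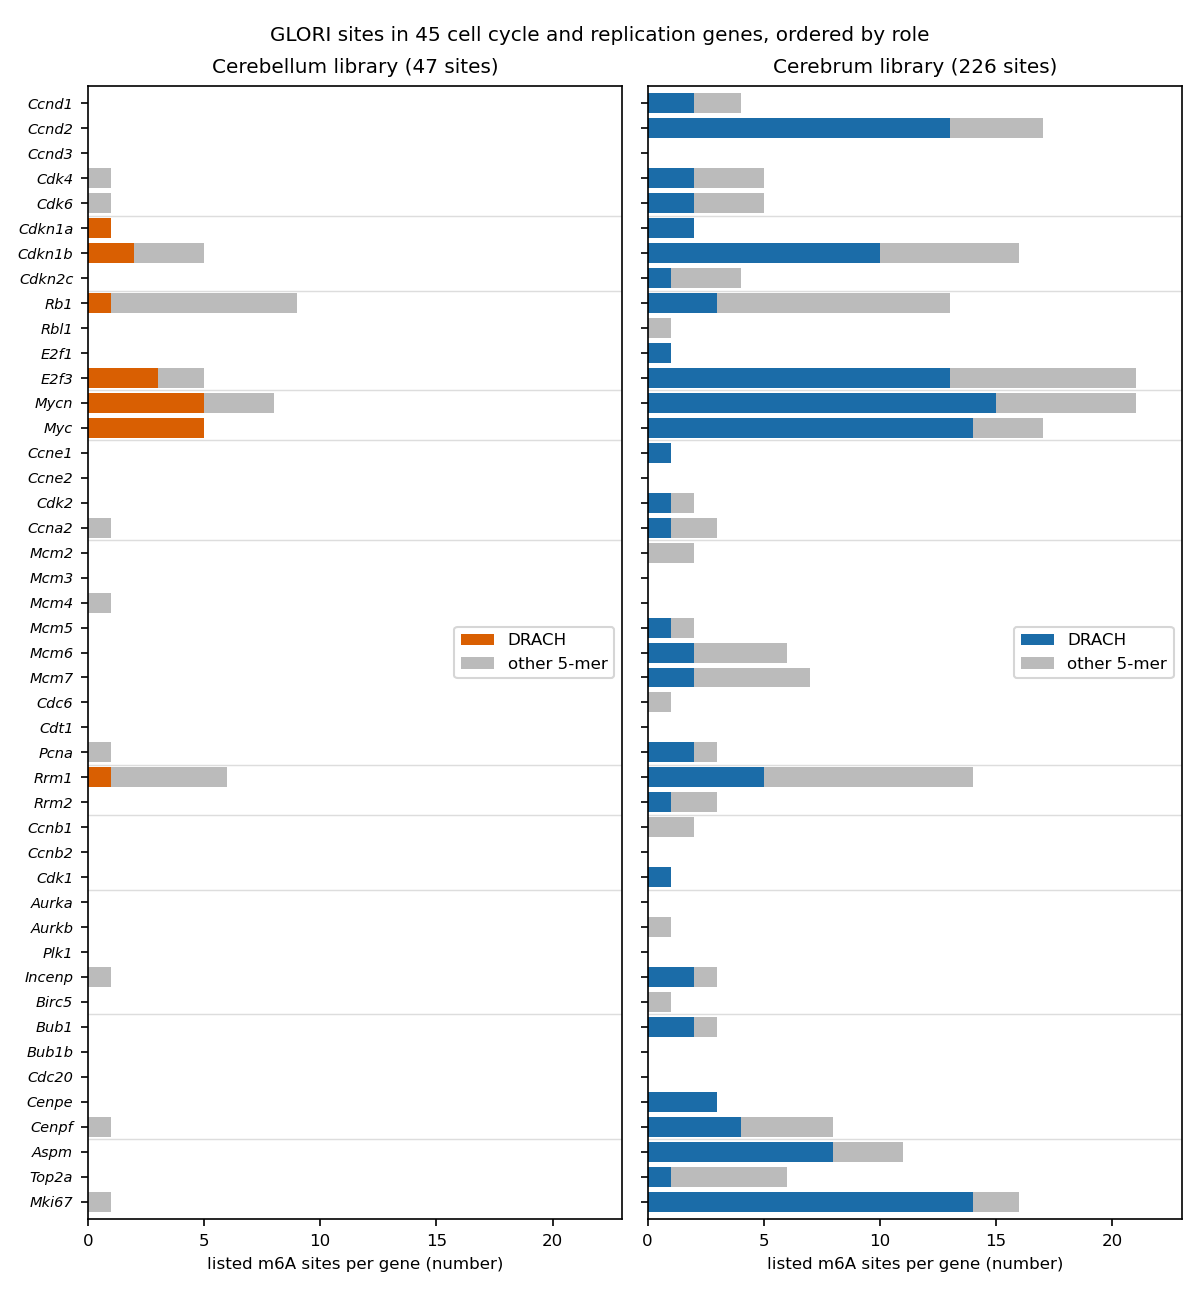
Number of listed m6A sites (x axis) in each of the 45 genes (y axis, ordered by role, grey lines between roles) in the cerebellum library (left, 47 sites) and the cerebrum library (right, 226 sites). Coloured bars are DRACH sites and grey bars sites in other 5-mers. DRACH bars appear for 7 genes on the left and 29 on the right, and Mycn, Myc and Mki67 have the most.

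In the cerebellum, 15 of the 45 genes held a site of any motif, against 41.2% of all coding genes. In the cerebrum 35 did, against 57.4%. A DRACH site was listed for 7 genes in the cerebellum, namely Cdkn1a, Cdkn1b, Rb1, E2f3, Mycn, Myc and Rrm1, where the background was 35.0%, and for 29 genes in the cerebrum, where it was 45.2%. The group therefore lay below the background in the cerebellum (15.6% with a DRACH site) and above it in the cerebrum (64.4%). Of the 29 genes with a DRACH site in either list, 22 had theirs in the cerebrum list only, beside 25.0% of coding genes, and 0 had more DRACH sites in the cerebellum, beside 7.24%. These backgrounds were not matched for the number of DRACH sites per gene, and 18 of the 29 genes had only 1 or 2. In bulk tissue, fewer cells of a type and less RNA per cell cannot be told apart, and a position missing from a list may be unmethylated, unexpressed or thinly covered.

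Markers of other cells were counted in the same way. A list of 10 cerebellar and hindbrain genes held 51 DRACH sites in the cerebellum library and 17 in the cerebrum library, with 5, 8 and 11 cerebellum DRACH sites for En1, En2 and Barhl1 where the cerebrum had 0, Zic1 at 14 in each, Gbx2 at 1 and 2 in that order, and Atoh1, Pax2 and Hoxa2 at 0 in both. A list of 13 forebrain genes held 5 and 180 in that order, and all 13 had a site in the cerebrum. The totals of both lists ran with the tissue labels, which was checked because the deposited name of the cerebrum list also holds an abbreviation used for the cerebellum. Markers of radial glia and progenitors, among them Sox2, Pax6, Nes and Slc1a3, held 44 DRACH sites in the cerebrum library and 20 in the other (8 and 5 of 8 genes with a site). Slc1a3 alone held 13 and 12 of these and Sox2 12 and 5, while Pax6 and Nes had 0 in the cerebellum. In the same order, cerebrum first, oligodendrocyte precursor markers held 29 and 23, vessel markers 10 and 4, microglial markers 7 and 4 and red blood cell markers 1 and 0. Over the whole libraries, DRACH sites in the cerebrum were 1.79 times those in the cerebellum. Of all coding genes, 57.4% had a site in the cerebrum and 41.2% in the cerebellum. Listed sites are no count of cells. How far the makeup of dividing cells moved the counts of the cell cycle genes was not tested.

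The G1 cyclins and their kinases had no DRACH site in the cerebellum list and 19 in the cerebrum list. Ccnd2, a D-type cyclin of neural progenitors and granule cell precursors, accounted for 13 of these, and had 17 sites in the cerebrum and 0 in the cerebellum. Its 3′UTR lies within a last exon of 5326 nt, which held 12 of the 13 DRACH sites, from 96 to 2560 nt past the stop codon, and the coding sequence held 1. Its sites were therefore spread along the 3′UTR, with 2 of them within 200 nt of the stop codon. Ccnd1, Cdk4 and Cdk6, the paralogous cyclin and the catalytic partners, each had 2 DRACH sites in the cerebrum and 0 in the cerebellum. Both DRACH sites of Cdk4 lay in exons of transcripts without a complete coding frame and both UTRs, and Ccnd3 had no site in either list.

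Among the CDK inhibitors, Cdkn1b (p27), which holds CDK2 complexes inactive and accumulates as precursors leave the cycle, had 10 DRACH sites in the cerebrum and 2 in the cerebellum. The 2 shared sites lay 2272 and 2302 nt past the stop codon, far from it. The other DRACH sites in the cerebrum included 2 in the 5′UTR and 3 in the coding sequence. The cerebrum list also held a Cdkn1b site outside DRACH, in AGATG, at position 1 of the coding sequence, the A of the start codon. Cdkn1a (p21), the inhibitor induced by p53, had 2 DRACH sites in the cerebrum, 1154 and 1168 nt past the stop codon, and the latter was also in the cerebellum list. Cdkn2c (p18), an inhibitor of Cdk4 and Cdk6, had 1 DRACH site, in the cerebrum, 133 nt past the stop codon.

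E2f3, an activating E2F factor, carried 13 DRACH sites in the cerebrum and 3 in the cerebellum. All 13 lay in its last exon of 3591 nt, from 232 nt before to 1940 nt after the end of the stop codon, and 8 fell within 200 nt of it. Its 3 shared sites were at -170, -163 and 29 nt, so both coding sites among them lay 7 nt apart. E2f1, also an activating factor, had 1 DRACH site, in the cerebrum, 85 nt before the end of the stop codon.

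Rb1, the retinoblastoma protein that binds E2F factors, held most of the group's intronic sites. It had 9 sites in the cerebellum, 1 of them DRACH, and 13 in the cerebrum, 3 of them DRACH. The shared DRACH site was 529 nt past the stop codon. Rb1 held all 7 intronic cerebellum sites of the group and 7 of its 10 intronic cerebrum sites, none in DRACH and none shared between the libraries. Rbl1 (p107), its paralog, had 1 site in the cerebrum, intronic and outside DRACH.

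The Myc factors were the group's most densely listed transcripts. Mycn, which drives proliferation of cerebellar granule cell precursors and cortical progenitors, had 15 DRACH sites in the cerebrum and 5 in the cerebellum, and all 5 were shared. Myc had 14 and 5, with 4 shared. A count of sites rises with transcript length, so listed sites were set against all DRACH adenosines of the longest coding isoform. By that measure Mycn had 36.6% of its DRACH adenosines listed in the cerebrum (15 of 41, 95% Wilson interval 23.6 to 51.9%) and 12.2% in the cerebellum. Myc had 24.1% (13 of 54, interval 14.6 to 37.0%) and 9.26%. Among coding genes with a DRACH site in the cerebrum, the cerebrum values stood at the 98.6th and the 93.2nd percentile. The cerebellum values stood at percentiles 84.35 and 76.36 of the coding genes with a DRACH site there.

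In Mycn 9 of the 15 DRACH sites lay within 200 nt of the end of the stop codon, 7 of them downstream, and 4 of these fell between 143 and 179 nt. The shared sites were at -823, 16, 65, 76 and 388 nt. In Myc 8 of 14 lay within 200 nt, starting with 4 coding sites from -67 to -13 nt and an AAACT site at 1 nt, the first base after the stop codon. The shared Myc sites were at -655, 1, 169 and 188 nt, and the site seen in the cerebellum alone, in TAACT, was at 159 nt, 10 nt before a shared site. It was the only DRACH site of the 45 genes that the cerebrum list lacked.

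The paralogs also had a listed site at matching coding positions. When the 21-nt windows around all coding sites of Myc and Mycn were compared base by base over 54 pairs, the highest identity was 18 of 21 bases, and the next pair reached 12. The closest pair was the GGACT at coding position 443 of Myc and 344 of Mycn, counted from the A of the start codon, each in the cerebrum list only and each at the second base of its codon. The alignment of these windows is a description of sequence, and methylation rates at the pair are not in the lists.

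**Figure D2:**
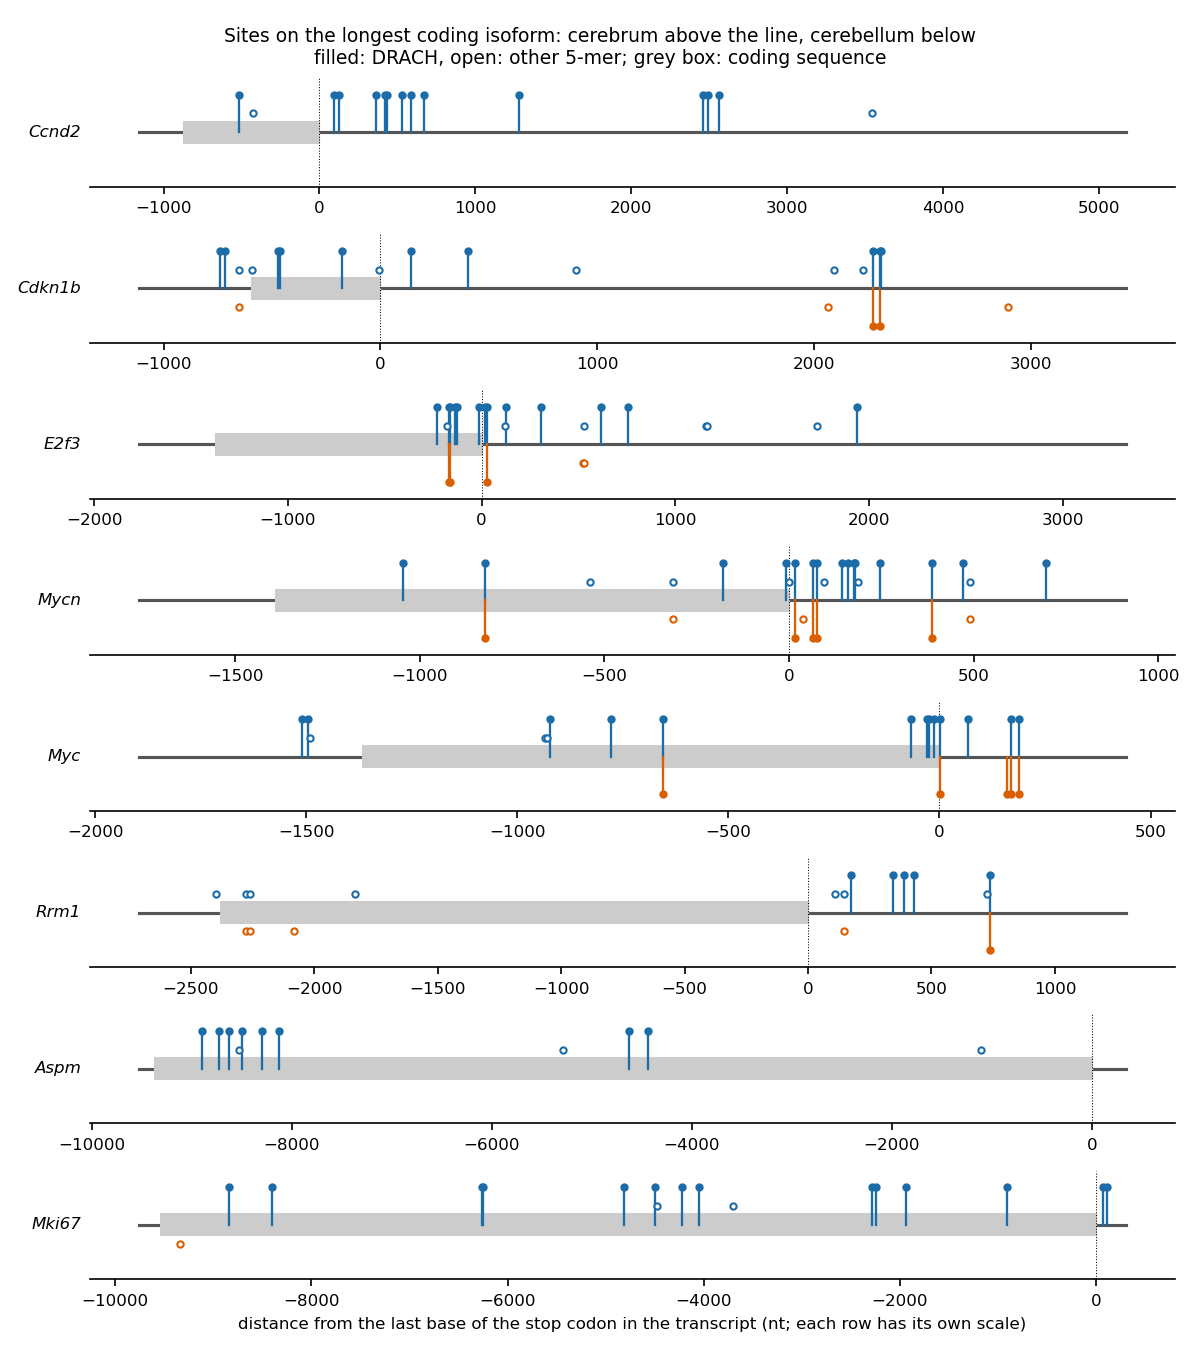
Positions of listed sites along the longest coding isoform of the 8 genes with 5 or more DRACH sites in the cerebrum. The x axis is the distance in nt from the last base of the stop codon (dotted line, its own scale in each row), the grey box is the coding sequence, cerebrum sites are drawn above the line and cerebellum sites below, filled for DRACH and open for other 5-mers. Sites gather around the stop codon in Mycn, Myc and E2f3, extend along the 3′UTR in Ccnd2 and lie in the coding sequence in Aspm and Mki67. A Myc DRACH site in the 5′UTR of another isoform, a Ccnd2 site in another 5-mer on another isoform and sites outside coding transcripts are not drawn.

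The S phase cyclins and their kinase were sparsely listed. Ccne1, Cdk2 and Ccna2, which drive entry into and passage through S phase, had 1 DRACH site each, all in the cerebrum, at 469, 56 and -14 nt from the end of the stop codon. Ccne2 had no site in either list.

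The replication licensing and fork proteins held 7 DRACH sites in the cerebrum and 0 in the cerebellum over 9 genes. The Mcm helicase subunits Mcm6 and Mcm7 had 2 each and Mcm5 had 1, and Pcna, the sliding clamp of the polymerases, had 2. Mcm2, Mcm4 and Cdc6, the last of which loads the helicase, had sites in other motifs only. The Mcm4 site, in TCAAC in the 3′UTR, was the single case of a gene with more sites in the cerebellum (1) than in the cerebrum (0). Mcm3 and Cdt1, the helicase loader restrained by geminin, had no site. Over the 9 genes 1.23% of 570 DRACH adenosines were listed in the cerebrum, beside 29.5% of 95 over Mycn and Myc.

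Rrm1, the large subunit of ribonucleotide reductase, supplies deoxynucleotides together with Rrm2. It had 5 DRACH sites in the cerebrum, all in the 3′UTR from 176 to 736 nt past the stop codon, and the last was also in the cerebellum list. Rrm2 had 1, in the cerebrum, at 355 nt.

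The mitotic kinases and cyclins had the lowest shares. Cdk1, the mitotic kinase, had 1 DRACH site, 111 nt past the stop codon, and its partners differed in that Ccnb1 had 2 sites outside DRACH in the cerebrum and Ccnb2 had none. Incenp, the scaffold of the chromosomal passenger complex, had 2 DRACH sites in its coding sequence, and its partners Aurkb and Birc5 had 1 cerebrum site each, outside DRACH. Aurka and Plk1, kinases of centrosome maturation and mitotic entry, had no site. The share of DRACH adenosines listed in the cerebrum was 0.510% for the mitotic cyclins with Cdk1 and 0.755% for the mitotic kinases and the passenger complex.

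Of the checkpoint and kinetochore genes, Bub1 had 2 DRACH sites, 12 and 43 nt past the stop codon, Cenpe 3 and Cenpf 4, all in the cerebrum. Bub1b and Cdc20, parts of the checkpoint complex and of its target the anaphase-promoting complex, had no site in either list. The 9 genes with no site were thus Ccnd3, Ccne2, Mcm3, Cdt1, Ccnb2, Aurka, Plk1, Bub1b and Cdc20.

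Aspm and Mki67 reached high counts through coding exons. Mki67, the proliferation antigen that coats mitotic chromosomes, had 14 DRACH sites in the cerebrum and 0 in the cerebellum, of which 10 lay in its exon 12 of 6836 nt and 2 in the 3′UTR. Aspm, a spindle pole protein whose loss causes microcephaly, had 8 in the cerebrum and 0 in the cerebellum, with 6 in exon 3 (1408 nt), 2 in exon 18 (3795 nt) and none within 4435 nt of the stop codon. Top2a, which decatenates chromosomes and is a common marker of dividing cells, had 1 DRACH site in the cerebrum, although its transcript holds 123 DRACH adenosines (0.813% listed). No internal exon of Top2a exceeds 232 nt. Its 3′UTR also held the 1 site of the group at which mm10 has no A, 58 nt past the stop codon.

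The 8 genes with 5 or more DRACH sites in the cerebrum held 92 of the 129 (71.3%), and 18 of the other genes had 1 or 2. Ccnd2, Aspm and Mki67 were the 3 of these 8 with no DRACH site in the cerebellum. Over all coding genes with as many DRACH sites in the cerebrum, 5.59% had none in the cerebellum, a comparison chosen after the counts were seen.

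**Figure D3:**
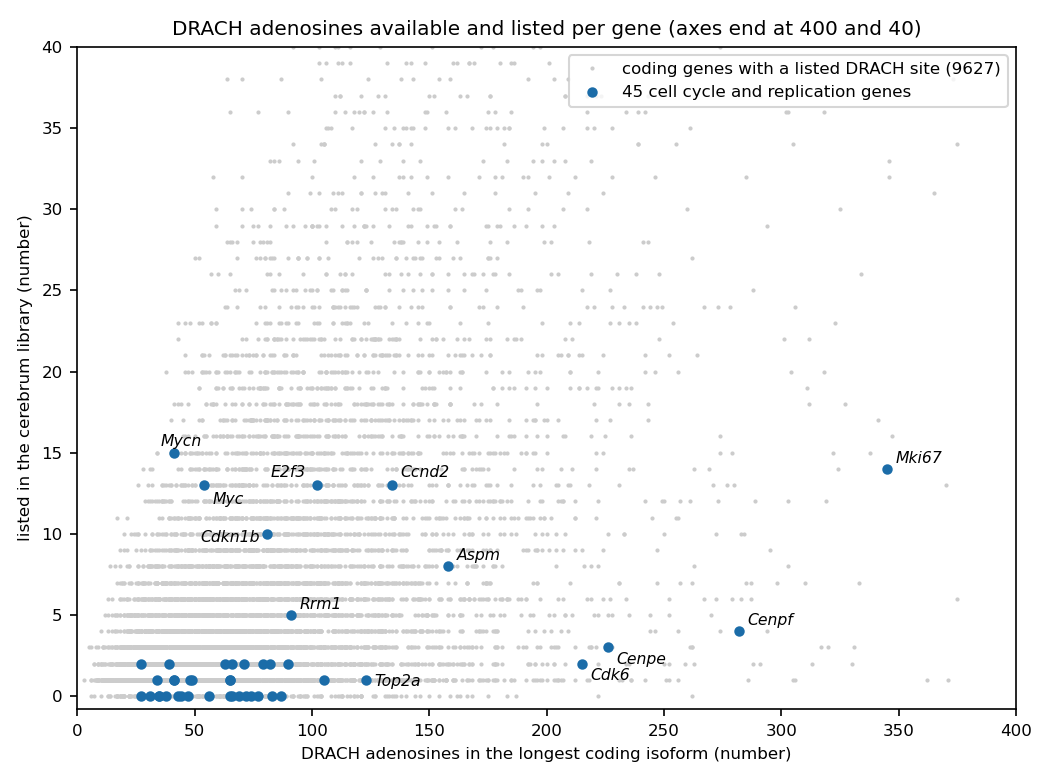
DRACH adenosines in the longest coding isoform of each gene (x axis, number) and those listed in the cerebrum library (y axis, number). Grey points are coding genes with a listed DRACH site in either library and blue points the 45 cell cycle and replication genes, with axes ending at 400 and 40, so genes beyond these limits are not drawn. Mycn (15 of 41) and Myc (13 of 54) lie near the upper edge of the cloud, Top2a (1 of 123) lies near the lower edge, and Mki67 (14 of 345) has the most DRACH adenosines of the group.

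Measured per DRACH adenosine, most of the group was sparsely listed even in the cerebrum. Over the 28 genes with a listed site on the longest isoform, the median share listed was 2.67%, and over all 9322 such coding genes it was 6.78%. Mycn, Myc, E2f3 (12.8%), Cdkn1b (12.4%), Ccnd2 (9.70%) and Pcna (7.41%) lay above the latter value. Mki67, with as many sites as Myc, had 4.06% of its DRACH adenosines listed, since its transcript holds 345 of them.

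Where the sites lay was compared with where DRACH adenosines lie in the same transcripts. The adenosines were pooled over genes, so a gene weighs by its number of adenosines there and by its number of sites here. Mki67 held 345 of the 2817 adenosines and 14 of the cerebrum sites, and Mycn 41 and 15. The contrasts with the adenosines therefore also reflect which genes were listed, not position within a transcript alone. In the cerebrum 51.6% of the 126 DRACH sites on coding transcripts were in the 3′UTR (95% interval 42.9 to 60.1), against 32.0% of the DRACH adenosines. The share over all cerebrum DRACH sites on coding transcripts was 55.7%, inside that interval. Within 200 nt of the stop codon lay 35.7% (27.9 to 44.4), against 8.84% of the adenosines and 22.0% of all cerebrum DRACH sites on coding transcripts. In the cerebellum 14 of 18 were in the 3′UTR (77.8%, 54.8 to 91.0), beside 57.3% of all DRACH sites of that library on coding transcripts and 50.2% of the adenosines, and 10 of 18 lay within 200 nt of the stop codon (55.6%, 33.7 to 75.4), beside 21.9% and 17.1%. The sites of Mycn, Myc and E2f3 supplied 25 of the 45 near the stop codon in the cerebrum and all 10 in the cerebellum. These genes held 15, 14 and 13 of the 126 cerebrum sites, in that order. The shares near the stop codon thus rested mostly on them. These intervals reflect the number of sites alone and take each as a separate draw, although neighbours share a transcript.

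Few DRACH sites lay near splice junctions. In the cerebrum 11.1% of the DRACH sites (6.73 to 17.8) lay within 100 nt of a junction, against 40.5% of the DRACH adenosines those transcripts hold. Those adenosines were again pooled over genes. All cerebrum DRACH sites on coding transcripts gave 8.19%, a value inside the interval of the group. Sites outside DRACH did not follow this: 35.5% of 76 on coding transcripts (25.7 to 46.7) were within 100 nt of a junction, beside 29.0% of all such sites in that library. Rrm1 illustrated it with non-DRACH sites 4 and 12 nt from a junction, both listed in both libraries.

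By exon class, the gap to all coding genes was widest in long internal exons. In internal exons of up to 400 nt, 4 of 1035 DRACH adenosines were listed in the cerebrum (0.387%, interval 0.150 to 0.990), beside 1.18% over all coding genes with a DRACH site. In longer internal exons it was 29 of 624 (4.65%, 3.25 to 6.60), beside 21.3%, and in last exons 83 of 1038 (8.0%, 6.50 to 9.81), beside 11.4%. The first exons gave 9 of 164 (5.49%, 2.91 to 10.1), beside 5.89%, and 5 of these 9 sites were in Cdkn1b. The adenosines in long internal exons include those of Mki67, Aspm and Cenpf, which have very long exons and share transcripts, so the interval is too narrow. The limit of 400 nt was set after the exon lengths of Mki67 and Aspm had been seen.

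**Figure D4:**
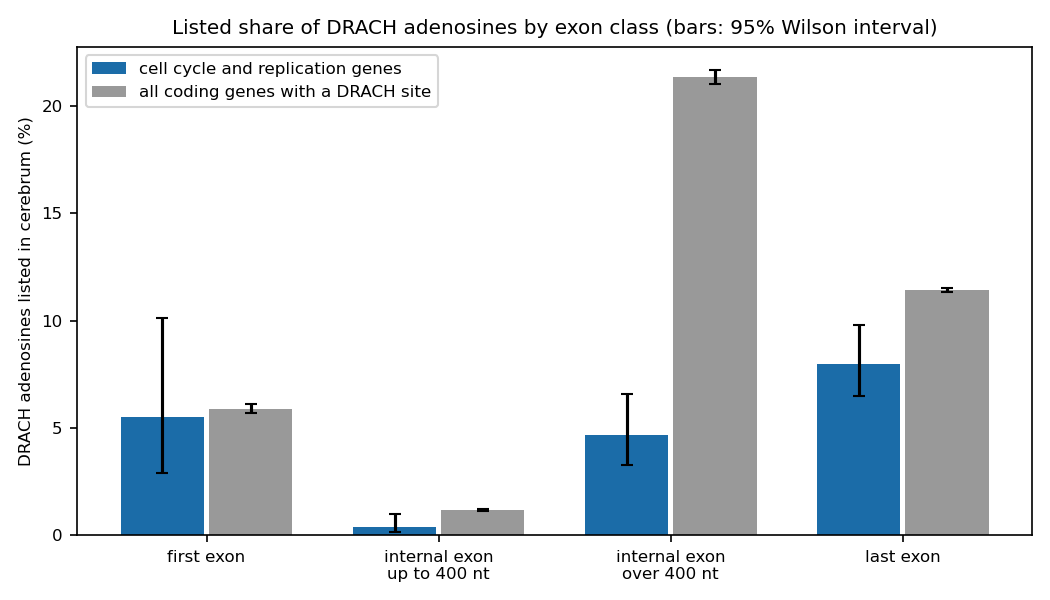
Percent of DRACH adenosines listed in the cerebrum library (y axis) by exon class (x axis) for the cell cycle and replication genes with a DRACH site (blue) and all coding genes with one (grey). Error lines are 95% Wilson intervals over adenosines. The group stands at 4.65% in internal exons over 400 nt, where all coding genes stand at 21.3%, and both sets are lowest in internal exons of up to 400 nt.

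The motifs of the group also differed between the lists. The DRACH share was 38.3% in the cerebellum (interval 25.8 to 52.6), beside 62.1% over that whole library, and 57.1% in the cerebrum (50.6 to 63.4), beside 46.7%. The cerebellum sites outside DRACH included the 7 intronic sites of Rb1. On exons of coding transcripts only, the shares were 46.15% of 39 sites in the cerebellum and 62.38% of 202 in the cerebrum. The library values were not restricted in this way. GGACT was the most frequent 5-mer with 22 cerebrum sites (9.73% of the group's sites, 6.26% of the library's), followed by GAACT with 18 and AAACT with 14. Outside DRACH, TCATT was the most frequent, with 6 sites in as many genes (2.65%, beside 0.743% of the library's sites). These lay in Cdk6, Cdkn1b, Mcm7, Pcna, Rrm1 and Birc5, and the Cdkn1b site was in both lists.

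Of the group's 25 sites found in both lists 17 were DRACH, beside 39903 of 48241 over the libraries. Of the 18 cerebellum DRACH sites 17 were also in the cerebrum list (94.4%, 74.2 to 99.0), whereas they made up 13.2% of the 129 cerebrum DRACH sites (8.39 to 20.1). Over all DRACH sites of the libraries these shares were 81.0%, inside the former interval, and 45.3%, above the latter. The latter share could not exceed 18 of 129, as the cerebellum list held 18 such sites. Its gap to 45.3% therefore mostly restates the counts of the lists and is no separate result on sharing. Of the group's sites outside DRACH, 8 were shared, which was 27.6% of the cerebellum's 29 and 8.25% of the cerebrum's 97, close to the 27.7% and 8.31% over all such sites of the libraries.

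Other genes of the pathway, 113 in number, were counted in the same way. The cerebellum list had a DRACH site for 36 of them (31.9%, beside 35.0% of all coding genes and 15.6% of the group). The cerebrum list had one for 57 (50.4%, beside 45.2% and 64.4%). Of the 58 with one in either list, 22 had it in the cerebrum only, beside 25.0% of coding genes and 75.9% of the group. These shares were again not matched for the number of sites per gene. The shares of these 113 genes thus lay nearer to the background than those of the group. Those with the most DRACH sites in the cerebrum were Mga, Mycl, Fbxw7 and Max, followed by Lin54 and Rbl2 with 9 each, where Mga, Mycl and Max belong to the Myc network of transcription factors and Fbxw7 is the ubiquitin ligase subunit that marks Myc and cyclin E for destruction. Mycl, the third Myc paralog, had 30 DRACH sites in the cerebrum and 11 in the cerebellum, all 11 of them shared. Cdkn1c (p57) and Bub3 were listed with more DRACH sites in the cerebellum (2 and 1) than in the cerebrum (1 and 0).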

How the data were processed

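Per the labels and the study's methods, the authors aligned GLORI reads to mm10 and to a copy carrying PWK alleles, called m6A with GLORI-tools, and pooled both calls within a library. They retained positions whose methylation rate exceeded 0.1 with more than 8 reads. The deposited files give chromosome, position and strand only, so depth per sample, and any precision resting on it, is unknown.

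The 45 genes, the role groups, the 113 further pathway genes and the marker lists were chosen with earlier results of these data known. Genes were described in depth when they had 5 or more DRACH sites in a library, a DRACH site in the cerebellum alone, or no site (named only), and positions of single sites in other genes were added after they were seen. Sequence came from GRCm38 and gene models from GENCODE M21, an annotation other than the authors'. Each position was placed on the longest isoform covering it that had a complete coding sequence and both UTRs, otherwise on other exons or introns. Distances were counted from the last base of the stop codon. No test was run, because each tissue had 1 library. Alternatives changed the isoform, motif, window, intron use, overlap tolerance and scaling. Placement was tested on simulated data: for 5997 positions on coding transcripts, base, region and motif were recovered for 100.0%. Python 3.11.15, pysam 0.24.0 and matplotlib 3.10.9 were used.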

Additional observations from a re-analysis of the deposited data

How the results depend on the processing

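Of 37 alternatives to 12 results, 32 left the value within its interval or within 1.5 times the count. The number of genes with a site in the cerebellum rose from 7 to 15 when any 5-mer was accepted. With sites of both libraries only, the 3′UTR share in the cerebrum moved from 51.6% to 76.5% and the share within 200 nt of the stop codon from 35.7% to 52.9%. Those shared DRACH sites are 17 of the 18 in the cerebellum list, so these values largely repeat the cerebellum result. A window of 400 nt gave 44.4% in the cerebrum. With all 5-mers, 1 gene (Mcm4) had more sites in the cerebellum, against 0 for DRACH. Leaving out sites that overlap another gene on the same strand removed 0 sites. No replicate could be left out, and no paired analysis was possible because each tissue has 1 library, although both came from 1 mouse per the methods. Read coverage, which sets whether a site is listed, is unknown, so a missing site is no measure of absent methylation.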
